A study of Mus musculus with 4 samples.

Results

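Accessible chromatin was examined at 10 integrin genes of macrophages, Itgam, Itgax, Itgal, Itgb2, Itga4, Itga5, Itga6, Itgav, Itgb1 and Itgb3. Peaks from 4 ATAC-seq libraries were joined into one region wherever they shared 1 bp or more, each region took the gene name of its highest peak, and the regions that carried one of the 10 names were kept. They numbered 100 of 60710 regions. ATAC-seq maps open chromatin by letting the Tn5 transposase insert adapters into accessible DNA.

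The cells were bone marrow-derived macrophages (BMDMs) of wild-type mice on a C57BL/6 background, aged 8 to 12 weeks, differentiated for 6 days in L929 supernatant, which supplies the growth factor M-CSF. The control group (2 libraries) received no IL-4, and the IL-4 group (2 libraries) received IL-4 at 20 ng/ml for 1 h. IL-4 is a cytokine that acts through STAT6 and polarizes macrophages to the alternative state, and the study asked how short exposure to it alters chromatin. The methods describe biological replicates but do not say whether the libraries with the same number share an animal or a culture, and a BMDM culture stands for macrophages grown outside the tissue.

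Integrins are membrane receptors made of 1 alpha and 1 beta chain that bind matrix proteins or counter-receptors on other cells and link them to the actin cytoskeleton. The beta2 integrins are restricted to leukocytes. They pair CD18 (Itgb2) with CD11b (Itgam, together the complement receptor Mac-1), with CD11c (Itgax) or with CD11a (Itgal, together LFA-1, which binds ICAM molecules). The alpha4 chain (Itga4) pairs with beta1 and binds VCAM-1, alpha5 beta1 is the main fibronectin receptor, alpha6 pairs with beta1 in a laminin receptor, and alpha v pairs with beta3 or other beta chains in receptors for vitronectin and osteopontin.

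The 8 sequences that follow were chosen because they carry the statements on presence and height made later. They comprise the Itgax promoter, the 2 integrin regions with a peak in both IL-4 libraries and in no control library, a pair of regions with the opposite pattern, the Itgb3 region with 2 STAT6-type motifs, and the regions with the lowest unadjusted p in each direction. The Itgb3 region was chosen after its values were seen. All are written 5′ to 3′ on the plus strand of mm10 in lower case, with matches to 9 searched motifs in capitals. The label C/EBP stands for the letters TTGCNNCAA, which are not the usual C/EBP core.
Itgax promoter, chr7:128129300-128129525, the bases before the annotated gene start (STAT6-type, then AP-1): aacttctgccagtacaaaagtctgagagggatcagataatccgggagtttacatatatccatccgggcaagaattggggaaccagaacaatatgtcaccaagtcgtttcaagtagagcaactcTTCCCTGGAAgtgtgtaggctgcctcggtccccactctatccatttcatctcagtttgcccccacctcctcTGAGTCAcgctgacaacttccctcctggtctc
Itgax intron 14, chr7:128137100-128137346, IL-4-only (a STAT match and 2 RUNX matches): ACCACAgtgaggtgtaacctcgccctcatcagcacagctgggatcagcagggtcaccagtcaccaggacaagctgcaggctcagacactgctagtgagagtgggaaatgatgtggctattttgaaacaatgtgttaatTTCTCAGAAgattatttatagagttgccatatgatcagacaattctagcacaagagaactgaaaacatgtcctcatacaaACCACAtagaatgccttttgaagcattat
Itga4 upstream, chr2:79087294-79087500, IL-4-only (no match): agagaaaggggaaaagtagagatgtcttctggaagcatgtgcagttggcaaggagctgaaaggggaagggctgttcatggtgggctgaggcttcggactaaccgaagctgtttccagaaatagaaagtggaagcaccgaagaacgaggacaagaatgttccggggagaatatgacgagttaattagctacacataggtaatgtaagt
Itgax exon 8, chr7:128133717-128133899, control-only (3 PU.1 matches and a C/EBP match): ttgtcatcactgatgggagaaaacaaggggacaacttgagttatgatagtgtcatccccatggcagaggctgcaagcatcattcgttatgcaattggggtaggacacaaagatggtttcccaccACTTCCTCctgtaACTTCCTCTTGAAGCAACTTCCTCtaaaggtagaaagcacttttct
Itga6 upstream, chr2:71765313-71765512, control-only (an NF-kB match): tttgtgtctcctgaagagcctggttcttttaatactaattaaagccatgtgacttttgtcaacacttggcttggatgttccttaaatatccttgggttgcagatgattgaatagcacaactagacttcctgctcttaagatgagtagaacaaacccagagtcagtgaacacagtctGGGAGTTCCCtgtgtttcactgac
Itgb3 intron 1, chr11:104614180-104614411 (2 STAT6-type matches and a RUNX match): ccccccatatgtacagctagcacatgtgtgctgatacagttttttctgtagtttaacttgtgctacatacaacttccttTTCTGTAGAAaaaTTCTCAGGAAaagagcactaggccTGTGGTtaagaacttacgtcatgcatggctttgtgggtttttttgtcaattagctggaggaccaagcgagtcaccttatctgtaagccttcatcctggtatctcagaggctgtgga
Itgam upstream, chr7:128050815-128051114, lower after IL-4 before adjustment (an AP-1 match and a RUNX match): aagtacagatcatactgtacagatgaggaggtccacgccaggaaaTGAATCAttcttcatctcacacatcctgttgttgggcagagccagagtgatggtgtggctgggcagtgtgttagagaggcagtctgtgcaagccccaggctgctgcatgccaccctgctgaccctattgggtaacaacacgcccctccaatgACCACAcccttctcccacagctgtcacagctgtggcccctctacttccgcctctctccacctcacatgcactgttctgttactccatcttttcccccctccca
Itgb1 intron 1, chr8:128686138-128686415, higher after IL-4 before adjustment (no match): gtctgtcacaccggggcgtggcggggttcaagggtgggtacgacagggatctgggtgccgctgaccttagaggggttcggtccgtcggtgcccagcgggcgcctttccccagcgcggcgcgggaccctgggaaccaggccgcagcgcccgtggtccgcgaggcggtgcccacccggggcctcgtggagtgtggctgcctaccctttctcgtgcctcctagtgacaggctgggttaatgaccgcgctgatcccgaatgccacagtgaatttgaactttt

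The control libraries held 45250 and 41885 peaks and the IL-4 libraries 41978 and 39462. The median peak height, which was taken to be −log10 of the q-value of MACS2, lay between 6.41 and 8.04. Sequencing depth is unknown because the files hold no read counts, and both peak number and height grow with depth. IL-4 replicate 2 had the fewest peaks, the lowest heights and the shortest peaks (median 172 bp, against 188 to 194 bp in the other libraries). Promoter peaks were present in every library at 7 of 10 macrophage marker genes, among them Cd68, Lyz2, Mertk and Fcgr1, and no peak annotated as promoter carried the name of Csf1r, Spi1 or Adgre1. The summed height of these promoter peaks was 137.48 and 121.54 in control and 111.54 and 102.34 in IL-4, and its part in the results was not tested. Of the markers of other cells, none of the lists for B cells, neutrophils, mast cells and basophils or fibroblasts had a promoter peak in any library. Cd2 was the single T cell marker of 5 with one (height 6.18, control replicate 2). In the list for erythroid cells and megakaryocytes, Pf4 had one in all 4 libraries, while Hbb-bt, Klf1 and Gp9 had none in any library.

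Every one of the 10 genes had accessible regions, but their numbers ranged from 4 at Itgal to 19 at Itgb1. Itga4 had 14, Itga5 and Itgav 12 each, Itgb3 10, Itgb2 9, Itgam 8, and Itgax and Itga6 6 each. Of the 100 regions, 37 had a peak in all 4 libraries (37.0%, against 41.9% of all regions). A further 11 had a peak in 3 libraries, 20 in 2 and 32 in a single library, while 29.58% of all regions were found in a single library. Each gene except Itgax had at least 1 region shared by the 4 libraries. By library, integrin regions numbered 69 and 63 in the control group and 65 and 56 in the IL-4 group, which overlap.

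**Figure D1:**
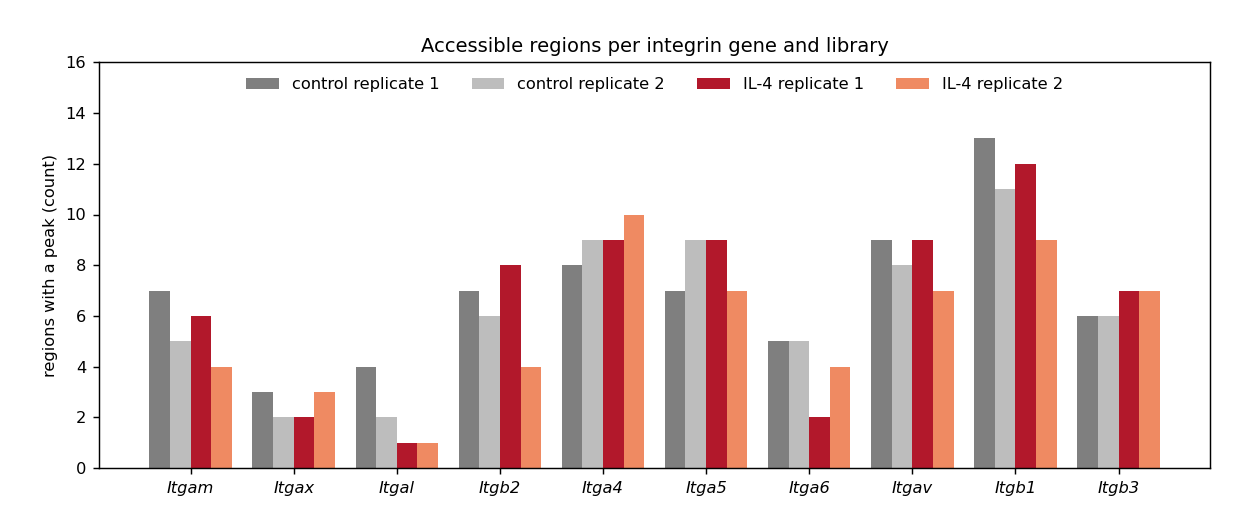
Number of accessible regions (y axis, count) assigned to each integrin gene (x axis) in each of the 4 libraries. Itgal has 4 and 2 regions in the control libraries and 1 in each IL-4 library, while the control and IL-4 counts of Itgb2, Itga5 and Itgb1 overlap.

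Counts per gene and library separated the groups at 3 genes. Itgal had 4 and 2 regions in the control libraries and 1 in each IL-4 library. Its region at −8.1 kb, without an IL-4 peak, had heights of 3.86 and 2.36 in control. Those at −5.9 kb and +111 bp were found in control replicate 1 alone, at 4.83 and 2.74. Itga6 had 5 in each control library and 2 and 4 in the IL-4 libraries. Itgb3, the beta chain of the vitronectin receptor, had 6 in each control library and 7 in each IL-4 library. At the other 7 genes the counts overlapped or shared a value. Of the 5570 genes of the series with 4 or more regions, 16.9% had fewer regions in both IL-4 libraries than in either control library and 6.46% had more, so 2 and 1 of 10 integrin genes are near the background. With 2 libraries a group no exact permutation test can pass a threshold of 0.05, so none was run.

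The positions of the integrin regions differed in proportion from those of all regions. Only 7 (7.0%) were annotated as promoter, against 18.8% of all regions, while 42 (42.0%) were intronic against 40.24%, and 46 (46.0%) were intergenic against 35.76%. The remaining regions were 3 exonic ones and 2 in a 5′UTR. Among the regions present in all 4 libraries, 10.81% of integrin regions were promoters, against 31.13% of all regions, and 56.76% were intronic, against 33.56%. Distances from the transcription start site (TSS) ran from −168195 bp to +189720 bp, and 14 regions lay within 1 kb of it. The median length was 201.5 bp, against 209 bp over all regions, and 24.0% carried the name of a repeat element, against 15.94%. Regions of 1 gene share a locus and are not replicates, so these shares are given without a test.

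**Figure D2:**
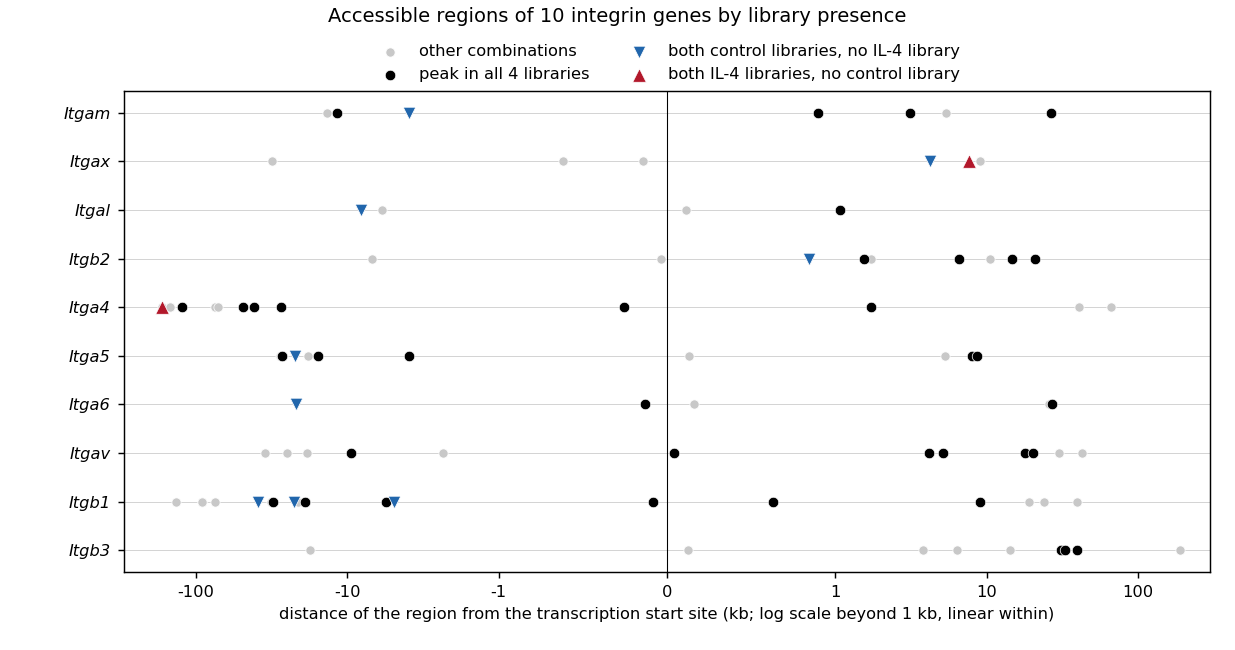
Distance of each of the 100 integrin regions from the TSS (x axis, kb, linear within 1 kb and logarithmic beyond), by gene (rows), with symbols for the libraries that hold a peak. Itga4, Itga6, Itgav and Itgb1 have a promoter region found in all 4 libraries, the red triangles are the 2 IL-4-only regions and the blue triangles the 10 control-only regions.

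Among the leukocyte integrins, promoter accessibility was patchy. The Itgax promoter region (chr7:128129172-128129621, 140 bp upstream of the TSS) had a height of 3.17 in control replicate 1, no peak in control replicate 2, and heights of 10.96 and 3.73 in the IL-4 libraries. Both IL-4 values exceeded the control values, but the gap between 3.17 and 3.73 was small beside the spread of the IL-4 libraries. A further promoter region of Itgax, 615 bp upstream, had a peak in control replicate 1 alone, at 5.11. The Itgb2 promoter region (chr10:77530253-77530375, 34 bp upstream) was found in replicate 1 of each group alone, at 11.16 in control and 5.03 in IL-4. No region annotated as promoter was assigned to Itgam or Itgal, and none overlapped the 300-base RefSeq promoter window of Itgam. Their nearest regions, picked after their values were seen, were intron 1 of Itgam at +897 bp, with heights of 10.53 and 4.32 in control and 6.88 and 9.51 in IL-4, and the 5′UTR of Itgal at +111 bp, with 2.74 in control replicate 1 only.

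Among the other chains, the promoter regions assigned to Itga4, Itgav, Itgb1 and Itga6 had a peak in every library. The Itga4 promoter region (chr2:79254707-79255939) was the longest integrin region at 1233 bp and had heights of 18.34 and 13.66 in control and 16.05 and 14.85 in IL-4. The Itgav promoter region (chr2:83724261-83724578) reached 17.00 and 24.01 in control and 32.17 and 17.06 in IL-4. Values of 17.52 and 13.60 in control and 19.53 and 12.29 in IL-4 were measured at the Itgb1 promoter (chr8:128685341-128685841), and lower values of 7.26 and 4.39 in control and 6.38 and 4.46 in IL-4 at that of Itga6 (chr2:71786848-71787090). The groups overlapped at all 4 of these promoters.

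Itga5 and Itgb3 had no region annotated as promoter. The region nearest to the TSS of Itga5, again picked after its values were seen, lay in the 5′UTR at +132 bp, with 7.53 in control replicate 1, no peak in control replicate 2, and 3.62 and 13.33 in IL-4. For Itgb3 it lay in exon 1 at +125 bp and was found in IL-4 replicate 1 alone, at 3.05.

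The highest region of each gene was mostly a distal or intronic one. Ranked by the mean of the 4 heights, with an absent peak set to 0 and no scaling by length, the order was Itgb2 (26.73), Itgb1 (24.05), Itgav (22.56), Itga5 (19.97), Itgb3 (18.82), Itgam (15.97), Itga4 (15.72), Itga6 (8.32), Itgal (5.67) and Itgax (4.46). The library values of neighbours in this order overlapped, except that the lowest Itga4 value, 13.66, lay above the highest Itga6 value, 13.03. The Itgb2 region in intron 8 (chr10:77550940-77551314, +20.8 kb) measured 29.48 and 28.47 in control and 26.25 and 22.72 in IL-4. The Itgb1 region 30.8 kb upstream (chr8:128654097-128655136) measured 24.49 and 27.59 in control and 22.64 and 21.49 in IL-4. In both, the deposited heights were lower in each IL-4 library, as was the median height over all regions (−0.21 on the log2 scale before normalisation), and after normalisation the changes were −0.10 (SE 0.237) and −0.08 (SE 0.257).

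The deposited heights of the groups overlapped at the highest regions of Itga5, Itga6, Itgal, Itgb3, Itgav and Itga4. The Itga5 region 3.9 kb upstream (chr15:103370454-103370827) measured 21.82 and 20.25 in control and 20.55 and 17.26 in IL-4. That of Itga6 in intron 1 (chr2:71814077-71814331, +27.1 kb) measured 13.03 and 6.50 in control and 8.70 and 5.05 in IL-4, and that of Itgal in intron 1 (chr7:127297210-127297511, +1.1 kb) 10.25 and 3.30 in control and 2.95 and 6.17 in IL-4. At each highest region named in this paragraph, the replicates of at least 1 group differed by more than the group means did. For Itgb3 it was a region of intron 8 (chr11:104640934-104641241, +33.1 kb), with 15.83 and 18.07 in control and 23.51 and 17.89 in IL-4, and the highest regions of Itgav and Itga4 were their promoters.

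**Figure D3:**
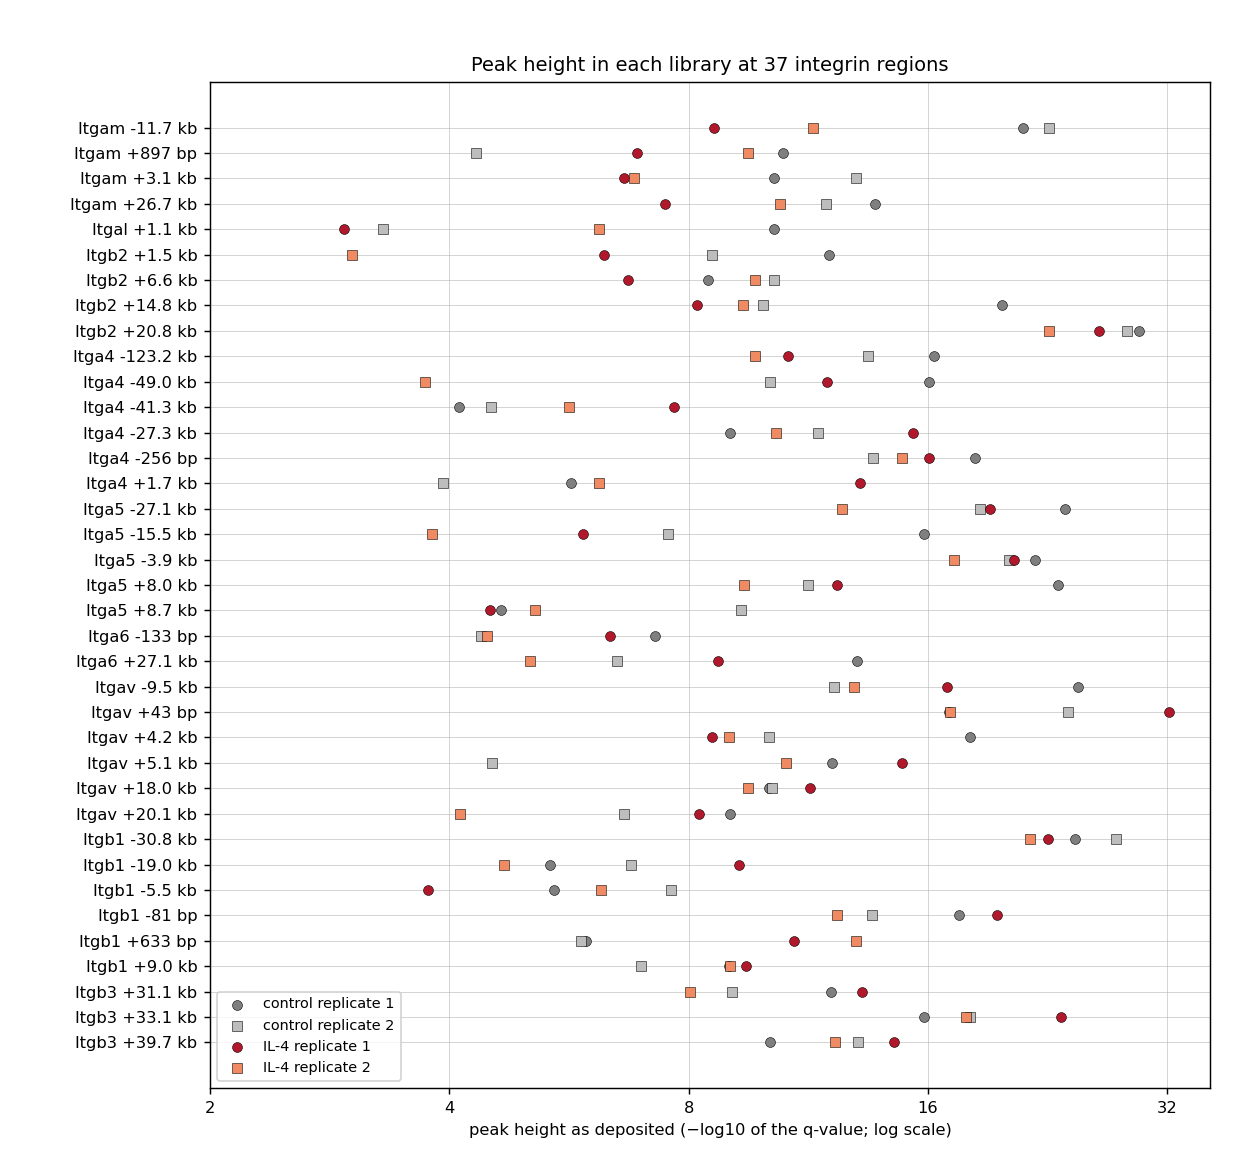
Deposited peak height (x axis, taken to be −log10 of the q-value, log scale) in each library at the 37 integrin regions with a peak in all 4 libraries, grouped by gene (rows named by distance from the TSS). At most regions the grey control symbols and the red or orange IL-4 symbols intermix, and the widest separations are at Itgam −11.7 kb, where control lies above, and Itgb1 +633 bp, where IL-4 lies above.

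The comparison of interest was whether 1 h of IL-4 changed the height of integrin regions. For this, limma was fitted to quantile-normalised log2 heights of the 25442 regions that every library shared. A lower height cannot tell fewer cells with an open region from less opening per cell. Over all regions, 4 were higher (0.0157%) and 2 lower (0.00786%) after IL-4 at an adjusted p under 0.05, and none of the 37 integrin regions was among them. The lowest adjusted p of an integrin region by limma was 0.428. At an unadjusted limma p under 0.05, 3 integrin regions were higher and 1 was lower. Over all regions these shares were 4.12% higher and 4.15% lower, 8.28% in either direction, against 10.81% of integrin regions. The normalised values of the 2 groups did not overlap at 9 integrin regions that were higher (24.3%, against 19.2% of all regions) and at 7 that were lower (18.9%, against 18.6%). The median log2 change was −0.03 (all regions −0.001), 18 regions had a positive and 19 a negative change, and changes ran from −0.98 to 1.24. The integrin regions were therefore near the background by each of these counts.

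The region with the lowest unadjusted p lay 11.7 kb upstream of Itgam (chr7:128050773-128051132, intergenic). Its height was 21.06 and 22.74 in control (21.90 ± 1.19, SD, n = 2) and 8.61 and 11.46 in IL-4 (10.04 ± 2.02, SD, n = 2). The groups stood apart, with both control values well above both IL-4 values. The normalised log2 change was −0.94 (SE 0.357, 95% interval −1.65 to −0.22) with a limma p of 0.0111 and an adjusted p of 0.428, and it was −0.56 without IL-4 replicate 1, the library with the lowest value. The other tested Itgam regions had changes from −0.52 (intron 2, +3.1 kb) to 0.50 (intron 1, +897 bp), and none had an unadjusted p under 0.05.

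The region with the most positive change lay in intron 1 of Itgb1 at +633 bp (chr8:128686114-128686415), in a CpG island named in the files. Its height was 5.94 and 5.85 in control (5.90 ± 0.06, SD, n = 2) and 10.86 and 13.01 in IL-4 (11.93 ± 1.52, SD, n = 2). Both IL-4 libraries lay above both control libraries, whereas the values of the Itgb1 promoter next to it overlapped. The log2 change was 1.24 (SE 0.488, 95% interval 0.26 to 2.22) with a limma p of 0.0138 and an adjusted p of 0.455. When peaks within 500 bp were joined, this region became part of the promoter region and the change was 0.26.

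A further 2 intronic regions passed the unadjusted threshold, both in genes of alpha chains that bind VCAM-1 or matrix proteins. At Itga4 intron 2 (chr2:79257033-79257239, +1.7 kb) the height was 5.69 and 3.93 in control and 13.16 and 6.17 in IL-4. The lowest IL-4 value lay just above the highest control value. The log2 change was 1.13 (SE 0.528, limma p 0.0364, adjusted p 0.569).

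At Itgav intron 1 (chr2:83729423-83729656, +5.1 kb) the height was 12.11 and 4.53 in control and 14.86 and 10.61 in IL-4. The deposited values overlapped, and the groups separated only after normalisation. The log2 change was 0.98 (SE 0.466, limma p 0.0393, adjusted p 0.579), and it was 0.38 without control replicate 2, the library with the low value.

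**Figure D4:**
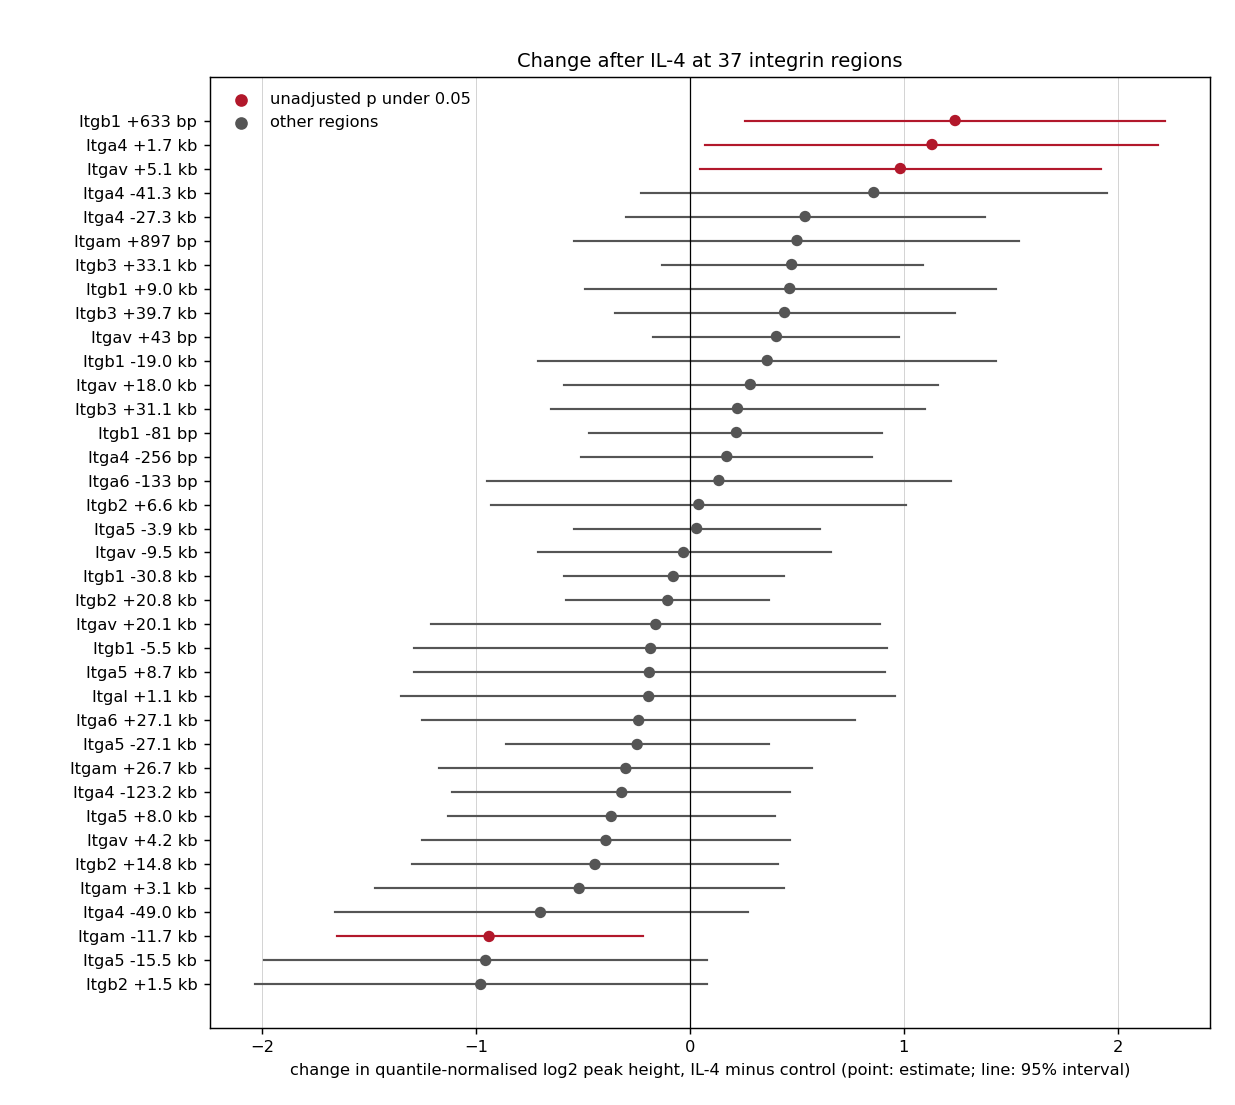
Change in quantile-normalised log2 height (x axis, IL-4 minus control) of the 37 integrin regions with a peak in all libraries, as limma estimate (point) and 95% interval (line), sorted by size. The 4 red points have an unadjusted p under 0.05, none has an adjusted p under 0.05, and the estimates lie on both sides of 0, from −0.98 to 1.24.

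By gene, the median log2 change was −0.41 over 4 Itgam regions, −0.27 over 4 Itgb2 regions, −0.25 over 5 Itga5 regions and −0.05 over 2 Itga6 regions. Medians above 0 were 0.36 over 6 Itga4 regions, 0.13 over 6 Itgav regions, 0.29 over 6 Itgb1 regions and 0.44 over 3 Itgb3 regions. The single tested Itgal region changed by −0.19, and Itgax had no testable region. Regions of a gene are not replicates, and none of these medians was tested. The 3 Itgb3 regions, all in introns 6 to 10, had changes of 0.22, 0.48 and 0.44 with adjusted limma p from 0.715 to 0.937.

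The 2 regions nearest to the threshold on the lower side belonged to the CD18 gene and to the fibronectin receptor gene, and both were named after their values were seen. Itgb2 intron 1 at +1.5 kb (chr10:77531682-77532014) measured 12.01 and 8.55 in control and 6.27 and 3.02 in IL-4, a log2 change of −0.98 (limma p 0.069, adjusted p 0.641). The Itga5 region 15.5 kb upstream (chr15:103382075-103382456) measured 15.83 and 7.53 in control and 5.89 and 3.81 in IL-4, a log2 change of −0.95 (limma p 0.0693, adjusted p 0.641). In both the control values lay above the IL-4 values without overlap.

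A peak in both IL-4 libraries and in no control library was found at 2 integrin regions (2.0%, against 2.53% of all regions). The first lay in intron 14 of Itgax (chr7:128137100-128137346, +7.7 kb), with heights of 11.03 and 6.21. The second lay 168.0 kb upstream of Itga4 (chr2:79087294-79087500, intergenic), with heights of 4.90 and 7.78. A separate peak of 2.81 in control replicate 1 lay directly beside the Itga4 region (chr2:79087171-79087291), and with peaks within 500 bp joined only 1 IL-4-only integrin region was left. The lower of the 2 heights had a median of 5.56 over both regions, against 3.73 over the 1534 IL-4-only regions of the series. Judged with 1 library fewer, the pattern held for 5 to 13 integrin regions, with 13 when IL-4 replicate 1 alone stood for the treated group. Itgb3 intron 1 at +6.3 kb, whose sequence is printed above, had no peak in control replicate 1, 3.80 in control replicate 2, and 6.70 and 3.53 in IL-4, so its groups overlapped.

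The opposite pattern, a peak in both control libraries and in no IL-4 library, was found at 10 integrin regions (10.0%, against 4.33% of all regions). They were spread over 7 genes. Among the leukocyte integrins, these were Itgam 3.9 kb upstream (8.12 and 4.22), Itgax exon 8 at +4.2 kb (6.15 and 3.02), Itgal 8.1 kb upstream (3.86 and 2.36) and Itgb2 intron 1 at +843 bp (3.08 and 2.78). Itgax thus held 1 region of each kind within its gene body.

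Among the other chains, control-only regions lay at Itga5 22.0 kb upstream (6.93 and 6.24), at 2 neighbouring positions of Itga6 21.9 kb (2.44 and 3.78) and 21.7 kb (8.30 and 7.46) upstream, and at 3 positions upstream of Itgb1. The latter were 39.0 kb (5.20 and 3.78), 22.3 kb (4.36 and 5.66) and 4.9 kb (6.99 and 1.97) from the TSS. Most were low peaks, with a median of 3.4 for the lower height, against 4.0 over the 2630 control-only regions of the series. Only the Itga6 region 21.7 kb upstream had both control heights above the pooled median height of 7.37. A new count gave 4 control-only regions when peaks at or below that height were left out, which also removes lower IL-4 peaks, 7 when peaks within 500 bp were joined, and 21 when control replicate 1 alone stood for its group. IL-4 replicate 2 had the fewest peaks of the 4 libraries (39462), and 11 regions had a peak in both control libraries and none in IL-4 replicate 1. The part of depth in this count was not tested.

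Sequence motifs were counted in all integrin regions on both strands, beside their share of all regions. PU.1 (GAGGAAGT), the lineage-determining ETS factor of myeloid cells, matched 16 of 100 regions against 9.87%. RUNX (TGTGGT) with 23 against 20.41% and AP-1 (TGANTCA) with 24 against 21.85% were near the share of all regions. The letters TTGCNNCAA, labelled C/EBP but not its usual core, matched 4 against 1.71%. In the 37 regions found in all libraries, PU.1 had 24.32% against 12.17%, AP-1 40.54% against 26.94% and RUNX 29.73% against 26.26%. The letters TTGCNNCAA had 2.7% against 2.3% there. In the 200 bp around the centre of the highest peak of these shared regions, TTGCNNCAA had 0.0% against 1.23% and PU.1 18.92% against 9.73%. AP-1 had 32.43% against 22.15% in that window and RUNX 21.62% against 18.11%. The GC box (GGGCGG), a promoter element, matched 8 of 100 against 21.5%, the E-box (CACGTG) 2 against 6.12% and NF-kB (GGGANNNNCC) 13 against 16.11%. Region length and GC content differ little (median GC 49.4% against 51.0%), and the lower share of promoters stands beside the GC box count, on which its part was not tested.

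The STAT6-type motif (TTCNNNNGAA, 4-base spacing) matched 4 integrin regions, against 7.22% of all regions and 30.9% of the 1534 IL-4-only regions. They were the Itgax promoter (TTCCCTGGAA), 2 neighbouring regions 31.7 and 30.8 kb upstream of Itgb1, of which the second is its highest region (TTCCCGGGAA), and Itgb3 intron 1 at +6.3 kb (TTCTGTAGAA and TTCTCAGGAA). Neither IL-4-only integrin region held the STAT6-type letters. The one in Itgax intron 14 held the 3-base spacing (TTCTCAGAA), which matched 8 of 100 integrin regions, against 6.9% of all regions. In the 200 bp around the centre of the highest peak, the STAT6-type letters matched 5 of 100 integrin regions, against 6.32% of all regions. A match describes letters and not binding.

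**Figure D5:**
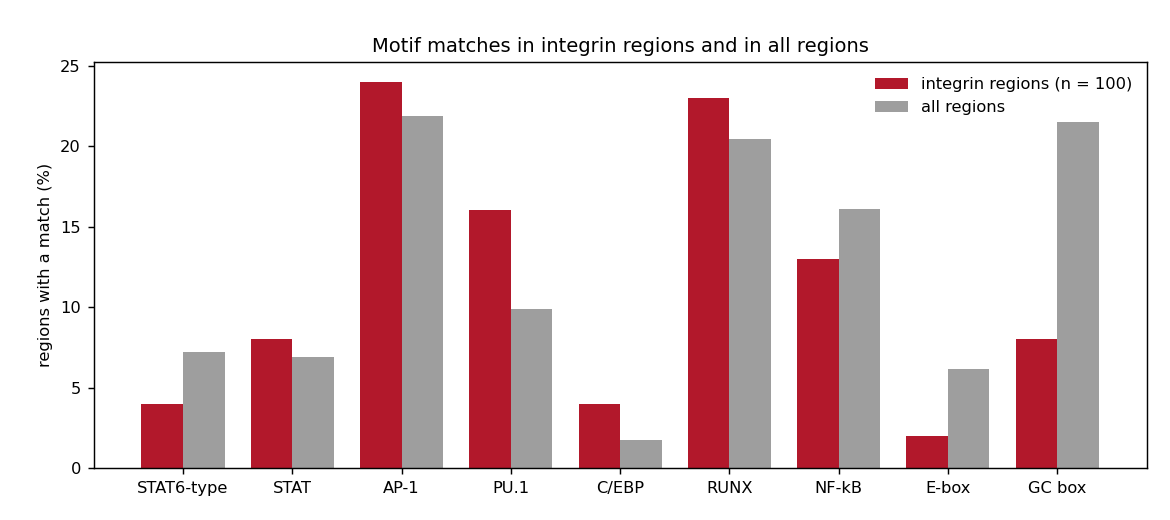
Share of regions with at least 1 match to each motif (y axis, percent) among the 100 integrin regions (red) and all 60710 regions (grey). The PU.1 bar is higher in integrin regions (16% against 9.87%), and GC box and STAT6-type bars are lower (8% and 4% against 21.5% and 7.22%). In 200 bp around the centre of the highest peak, the shares were 14% against 9.3% (PU.1), 7% against 19.3% (GC box) and 5% against 6.32% (STAT6-type). The bar marked C/EBP (4% against 1.71%) counts the letters TTGCNNCAA, which are not the usual C/EBP core.

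The remaining integrin chains had 65 regions at 12 of 16 genes, with none at Itga3, Itga10, Itga11 or Itgad. Of these, 16 were present in all libraries, a smaller share (24.6%) than for the 10 genes. No region passed the adjusted threshold in limma. At an unadjusted p under 0.05, 1 was higher and 0 lower (6.25%, against 8.28% of all regions), and the median log2 change was 0.14. The higher one was the promoter of Itgb8, the beta chain of a TGF-beta-activating integrin, with 3.62 and 13.41 in control and 17.35 and 9.32 in IL-4 (log2 change 1.12, adjusted p 0.555), where the groups overlap. IL-4-only regions numbered 7 (10.77%, against 2.53% of all regions). Of these, 3 were at Itgb8, 3 at Itga1 and 1 at Itga2, both of the latter being collagen-binding alpha chains. Control-only regions numbered 4 (6.15%, against 4.33% of all regions). Several of these regions share a locus, and the highest weaker height among the 7 was 4.93.

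The list of integrin activators and adhesion proteins, such as talins, kindlins, RAP1 and SRC family kinases, had 245 regions at 31 of 35 genes, 113 of them in all libraries. No region passed the adjusted threshold in limma. Before adjustment 7 were higher and 5 lower (10.62% in either direction, against 8.28% of all regions), and the median log2 change was −0.08. The lowest adjusted p was 0.173, at an intron of Vav3, a guanine nucleotide exchange factor, with 25.66 and 20.31 in control and 10.38 and 4.46 in IL-4 (log2 change −1.56). An intronic region was assigned to Itgb1bp1, whose product binds the beta1 tail, from 58.6 kb away. It had 3.17 and 3.78 in control and 16.91 and 8.22 in IL-4 (log2 change 1.97, adjusted limma p 0.212). The groups stood apart at both. This list had 5 IL-4-only regions (2.04%, against 2.53% of all regions) and 14 control-only regions (5.71%, against 4.33%).

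Genes of integrin ligands had 64 regions at 12 of 20 genes, with 29 in all libraries. None passed the adjusted threshold in limma. Before adjustment 0 were higher and 3 lower (10.34% in either direction, against 8.28% of all regions), and the median log2 change was −0.05. The 3 were 2 regions upstream of Thbs1, which encodes thrombospondin 1, and 1 assigned to Icam2, a ligand of LFA-1. The Icam2 region was annotated as intronic and lay at −45.6 kb from the TSS of Icam2. The Thbs1 region at −115.0 kb had 14.79 and 10.72 in control and 2.80 and 4.93 in IL-4 (log2 change −1.53, adjusted p 0.372). IL-4-only regions numbered 4 in this list (6.25%, against 2.53% of all regions) and control-only regions 2 (3.12%, against 4.33%). At Vcam1, the ligand of alpha4 beta1, 1 region of each kind was found. They lay at −56.9 kb (7.99 and 3.87 in IL-4) and at −32.6 kb (4.13 and 7.24 in control).

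Within the bodies of the integrin genes, assignment by the nearest TSS moved few regions across gene borders. The 46 intergenic regions, which reached from −168195 bp to +189720 bp of the TSS, were outside this check. A single-library region in intron 12 of Itgam (IL-4 replicate 2, height 1.35) was assigned to Itgax, 31.2 kb away, 1 region in the body of Itga5 was assigned to Zfp385a, and 2 in the body of Itga6 to Pdk1. All regions within the bodies of the other integrin genes carried the name of that gene.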

How the data were processed

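ATAC-seq was performed on 4 libraries, 2 of control BMDMs and 2 of BMDMs treated with IL-4 for 1 h, and groups and replicate numbers were taken from the sample labels. The authors aligned reads to mm10 with BWA, called peaks in each library separately with MACS2, removed blacklisted regions and annotated peaks with HOMER, and the submitters' processing notes list BWA 0.7.10, SAMtools 0.1.19, HOMER 4.2 and MACS2 2.0.10. The handling of the Tn5 offset and of duplicate reads is not given in the sources used here. The deposited peak score is not labelled with a unit, and it was taken to be −log10 of the MACS2 q-value, since the lowest score of 1.3 is close to −log10 of 0.05. The methods name a q of 0.01. Scores measure evidence against the background of their own library and depend on its depth, which is unknown.

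Peaks on chromosomes 1 to 19, X and Y that shared at least 1 bp were merged, and 12 mitochondrial peaks were left out. Each region was given the maximum height per library and the annotation of the peak with the maximum score. For regions shared by the 4 libraries, log2 heights were quantile-normalised, and limma (version 3.58.1, functions lmFit and eBayes with trend, R 4.3.3) tested IL-4 against control, with Benjamini-Hochberg adjustment over all 25442 such regions and a threshold of 0.05. A region with a missing peak was not tested, and no value was imputed. The fit was tested on simulated data with planted changes larger than any integrin change found here, so that test does not cover smaller changes. DiffBind, which the authors ran on reads, was not used, as no reads were analysed here. Motifs were searched on both strands in GRCm38.p6, the assembly behind mm10, and promoter windows from RefSeq on that assembly matched 6 of the 10 genes. Named regions were the promoter region nearest to the TSS, the highest region of each gene, IL-4-only and control-only regions, and regions with an unadjusted p under 0.05. The members, the marker and pathway lists and these rules were chosen with earlier results of these data known. The values of 1 marker gene are not reported here. The deviations of libraries with the same replicate number were not correlated (correlation 0.0068), and the fit had no block. That value does not show whether these libraries share an animal or a culture. The p-values measure only the spread between these libraries.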

Additional observations from a re-analysis of the deposited data

How the results depend on the processing

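No integrin region passed the adjusted threshold under any of the 13 alternative settings. The setting that took the gene name of any peak reused the main fit and the same regions. Over the 14 named regions in the fit, 151 of 162 comparisons kept the direction, 11 reversed and 0 passed the adjusted threshold (adjusted p 0.337 to 1.0). Reversed log2 changes were −0.036 at the Itga4 promoter, −0.159 at Itga5 −3.9 kb and −0.082 at the Itga6 promoter without normalisation, −0.038 at the Itga6 promoter with peaks within 500 bp joined, and 0.004 at Itgb1 −30.8 kb with median scaling. With 1 library left out in turn, the change ranged from −0.93 to 0.54 at Itgal +1.1 kb (0.54 and 0.52 without control replicate 1 or IL-4 replicate 1), from −0.14 to 0.37 at the Itga6 promoter (negative without control replicate 2), from −0.65 to 0.16 at Itga6 +27.1 kb (positive without control replicate 1), and from −0.25 to 0.09 at Itgb1 −30.8 kb (0.09 without control replicate 2, 0.03 without IL-4 replicate 1). The cause was not tested.

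With only peaks above the pooled median height there were 50 integrin regions, 19 of them in every library, 4 control-only regions, 0 higher at an unadjusted p under 0.05, and 2 higher and 1 lower called over all regions. Joining peaks within 500 bp gave 1 IL-4-only region. Without normalisation 0 integrin regions were higher and 3 lower before adjustment, the median log2 change was −0.23, and 0 regions of the series were called higher. Without a variance trend 3 were lower before adjustment, and 0 were called higher and 0 lower over all regions. With missing heights set to the lowest height, which tests the 68 integrin regions with a peak in at least 2 libraries, 5 were higher and 6 lower before adjustment, and 0 were called either way over all regions. With the replicate block, 11 regions of the series were higher and 3 lower, and the integrin counts were 0 adjusted and 3 higher and 1 lower before adjustment. Leaving out each library in turn gave 5 to 13 IL-4-only regions (6 and 5 without control replicate 1 or 2, 8 and 13 without IL-4 replicate 1 or 2) and 11 to 21 control-only regions (21 without control replicate 2), since fewer libraries then define the pattern. It gave 1 to 2 integrin regions higher and 1 to 2 lower before adjustment, a median log2 change of 0.035 to 0.118, and 0 to 14 regions called higher (14 without control replicate 2) and 0 to 0 called lower over the series; the lone library of a group is assumed there to vary like the others. Depth is unknown, so a missing peak does not show closed chromatin.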
